A study of Mus musculus with 48 samples.

Results

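The lacrimal gland (LG) and the spleen of untreated mice were compared within each animal, by sequencing the rearranged immunoglobulin heavy-chain transcripts of both tissues. The comparison took in the 10 libraries of the BCR control group, that is, 1 LG and 1 spleen library from each of 5 mice, of the 48 libraries in the series. These mice were untreated C57BL/6 animals, and the labels give no age for them. The other libraries came from C57BL/6 mice that were given antibiotics and then gavaged with fecal material of NOD.B10.H2b mice (NOD-FMT, 20 libraries) or with phosphate-buffered saline (PBS-T, 18 libraries), and they serve here only as a background. LG and spleen were paired by the mouse number in the labels, and the mouse was the unit of replication. The exact permutation tests of LG against spleen given below treat the libraries as independent and do not use this pairing. A paired test, the exact sign-flip, is printed for some results only, and with 5 mice it cannot pass the threshold used. The calls by exact permutation therefore rest on the unpaired test. The 2 tissues of a mouse differ in cell composition, and the libraries hold RNA of whole tissue, so the comparison is between the transcript pools of 2 organs. Only heavy-chain transcripts were amplified, so the tissue labels could not be checked against marker genes.

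The LG makes the watery part of tears, and the B-lineage cells that settle between its acini are mostly plasma cells. Many of them make IgA that the epithelium carries into the tear film. The spleen holds large numbers of naive IgM+ IgD+ B cells, marginal zone B cells and fewer plasma cells. In a B cell that has not met antigen the heavy chain carries an unmutated IGHV gene, and after activation it may switch from IgM to another isotype and gather mutations. The junction of the V, D and J genes, HCDR3, differs between almost all newly made B cells, so a HCDR3 found many times in a mouse often marks the descendants of 1 cell, although some HCDR3 arise repeatedly.

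The values were counts of consensus sequences, each built from reads with the same molecular identifier. After identical sequences held by 3 or more mice of a tissue had been removed, LG libraries kept 56729 to 80575 counts and spleen libraries 78315 to 536935 counts. Sequences with the same IGHV and IGHJ genes and the same HCDR3 residues were taken as 1 clonotype. Clonotypes numbered 927, 1015, 1089, 1033 and 898 in the LG of mice 1 to 5 and 193625, 41494, 137616, 142944 and 185218 in their spleens. With every library thinned at random to 56729 counts, the LG held 909 ± 109 clonotypes (SD, n = 5) and the spleen 28602 ± 2316, a 31.5-fold difference. The spleen library of mouse 2 was the shallowest spleen library and also lay apart from the other spleens in several measures given below.

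2 patterns of shared sequences between mice bear on the results. The LG of mouse 2 held 894 sequences identical to sequences in the LG of mouse 3, where other pairs of control glands shared 37 to 106. These 894 held 11.6% of the deposited counts of the LG of mouse 2 and 93.7% of those of the LG of mouse 3. Fewer sequences could also hold many counts. The 71 shared by the glands of mice 2 and 4 held 13.0% of the counts of mouse 2 and 0.674% of those of mouse 4. The 78 shared by the glands of mice 1 and 4 held 3.01% of the counts of mouse 1. Of the 1015 clonotypes of the LG of mouse 2, 474 (46.7%) were also in the LG of mouse 3, and 323 (31.8%) were in the spleen of mouse 3 against 200 (19.7%) in its own spleen. By counts the order was the opposite, with 83.0% of the counts in its own spleen's clonotypes and 9.99% in those of mouse 3. All 5 control glands also shared clonotypes with the LG of 1 PBS-T mouse, which held 17213 clonotypes. It shared 161, 104, 304, 303 and 180 clonotypes with control glands 1 to 5, which were 10.2% to 29.3% of their clonotypes but 0.283% to 0.829% of their counts. Main results were also computed without these sequences, and values stand beside calls that changed. How the sequences came to be shared was not tested.

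The largest clonotype of each LG made up 15.02%, 16.5%, 12.5%, 11.3% and 6.86% of its counts in mice 1 to 5, and every count of these 5 clonotypes was IgA. Their HCDR3 nucleotides are printed because these 5 clonotypes recur in several of the results. Capitals mark bases that the germline alignment left without a V, D or J base, which are the bases added or unassigned at the joints.
Mouse 1, IGHV1-53 with IGHJ1, ATNWDRYFDV: gcaaCcaactgggacAggtacttcgatgtc
Mouse 2, IGHV11-2 with IGHJ2, MRWGGDGFDY: atgagatGGGGGGgggacGGctttgactac
Mouse 3, IGHV1-53 with IGHJ2, ARNWNWYFDY: gcaagaaactggAATTGGtactttgactac
Mouse 4, IGHV1-53 with IGHJ1, ARNWDRYFDV: gcaagaaactgggacAggtacttcgatgtc
Mouse 5, IGHV1-9 with IGHJ4, ARRLFYYPLDY: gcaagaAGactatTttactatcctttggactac
The commonest sequence of the first 4 clonotypes had no mutation in its IGHV gene, and that of mouse 5 had 3. 3 of the 5 used IGHV1-53. The clonotypes of mice 1 and 4 used the same IGHV and IGHJ genes, and both HCDR3 read NWDRYFDV from the third residue on.

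IgA filled the LG and IgM the spleen. IgA made up 96.7%, 88.6%, 97.7%, 97.3% and 97.8% of the LG counts of mice 1 to 5 and 20.3%, 24.3%, 13.6%, 16.9% and 13.3% of their spleen counts. The groups did not overlap, and mouse 2 had the lowest LG value and the highest spleen value. The means were 95.6% ± 3.93 and 17.7% ± 4.67 (SD, n = 5 each), a difference of 77.9 percentage points and a ratio of 5.40 (p = 0.00794, two-sided exact permutation test over every way to assign the libraries to the tissues, 5 to each, the smallest p that this design can give). IgM made up 1.09%, 3.50%, 0.555%, 1.10% and 0.579% of LG counts and 64.5%, 66.2%, 70.5%, 68.5% and 71.2% of spleen counts. The means of 1.36% ± 1.22 and 68.2% ± 2.82 differed 49.96-fold (p = 0.00794, exact permutation). Counts are molecules of RNA from whole tissue, so fewer cells of an isotype and less RNA per cell cannot be told apart.

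**Figure D1:**
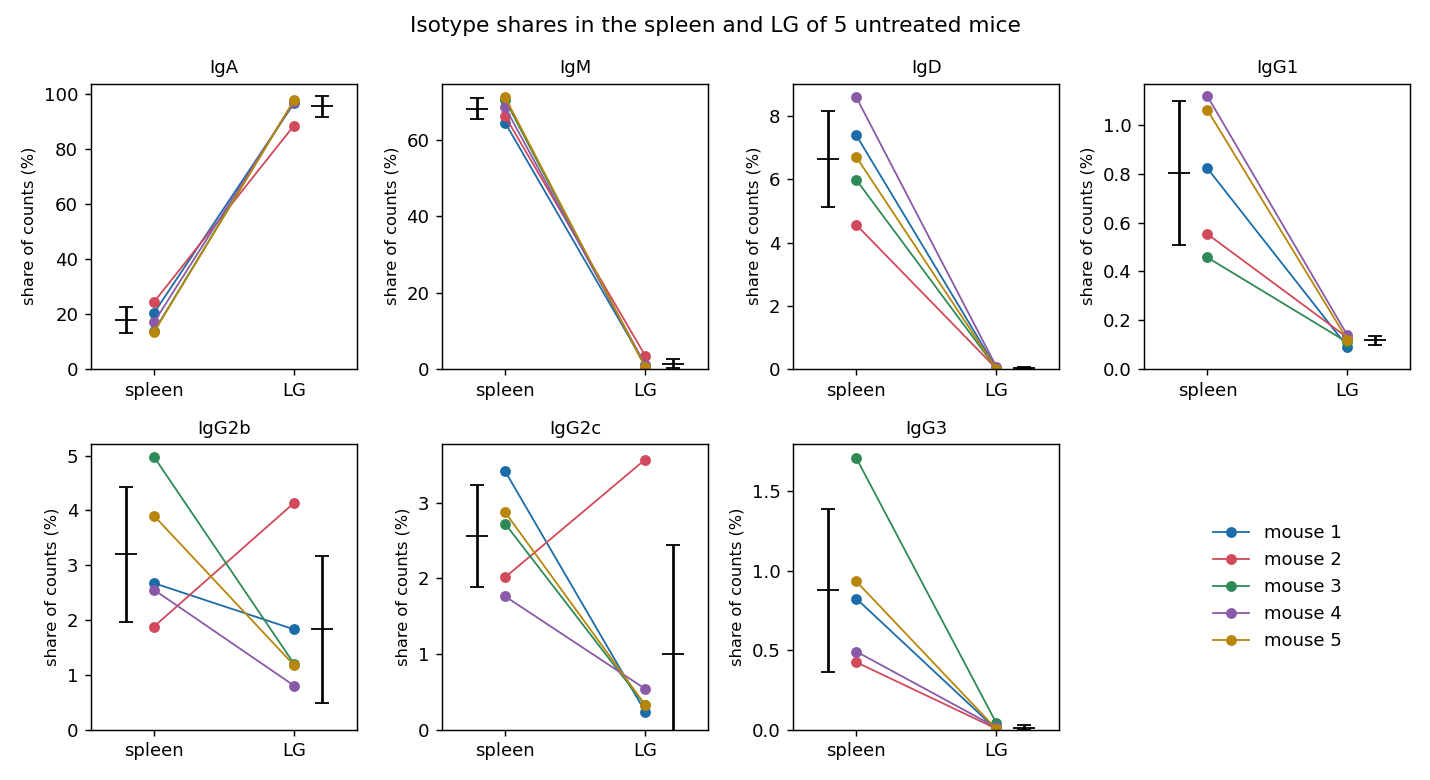
Share of counts of each isotype in percent (vertical axis, its own scale in each panel) in LG and spleen of the 5 BCR control mice. Each point is 1 library, lines join the tissues of 1 mouse, and bars show the mean ± SD. IgA lies between 88.6% and 97.8% in the LG and between 13.3% and 24.3% in the spleen, and of the 7 isotypes drawn (IgE is left out) IgG2b and IgG2c are those where the tissues overlap.

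The minor isotypes were not all lower in the LG. IgD, which naive B cells carry beside IgM, averaged 0.0248% ± 0.0282 of LG counts and 6.65% ± 1.51 of spleen counts. IgG1 averaged 0.117% ± 0.0182 against 0.803% ± 0.295, and IgG3 0.0135% ± 0.0166 against 0.876% ± 0.512. These 3 isotypes were lower in the LG in 5 of 5 mice without overlap (p = 0.00794 each, adjusted p = 0.0159 over the 6 minor isotypes, exact permutation). IgG2b was the most abundant IgG of the LG, at 1.83%, 4.14%, 1.203%, 0.804% and 1.18% against 2.67%, 1.88%, 4.98%, 2.55% and 3.91% in the spleen. Its difference did not pass the test (p = 0.151, adjusted p = 0.181, exact permutation). IgG2c behaved likewise, at 0.238% to 0.539% in 4 glands and 3.57% in the LG of mouse 2, against 1.76% to 3.42% in the spleens (p = 0.0794, adjusted p = 0.119, exact permutation). Without mouse 2 both were lower in the LG, by 2.27 points for IgG2b and by 2.34 points for IgG2c (unadjusted p = 0.0286 each, the smallest that 4 against 4 can give, exact permutation). IgE was seen in the LG of mice 2 and 3 alone, at 0.00618% and 0.0288%, while 0 counts in the others allow up to 0.00529%. When unique sequences were counted in place of molecules, the IgG2b share was 1.62 points higher in the LG (p = 0.00794, exact permutation).

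LG clonotypes were more often mutated than spleen clonotypes. A clonotype was called unmutated when its commonest sequence matched the germline IGHV gene. Unmutated clonotypes were 45.6%, 46.1%, 39.3%, 45.2% and 41.0% of LG clonotypes in mice 1 to 5, and 86.0%, 67.2%, 82.9%, 86.3% and 84.5% of spleen clonotypes. The tissues did not overlap, and the spleen of mouse 2 was the only spleen under 80%. The means were 43.4% ± 3.09 and 81.4% ± 8.03 (p = 0.00794, exact permutation, n = 5 each). The mean number of mutations per clonotype was 2.25, 2.42, 2.79, 2.78 and 2.65 in the LG and 0.484, 1.53, 0.663, 0.459 and 0.565 in the spleen. The means of 2.58 ± 0.235 and 0.740 ± 0.449 mutations differed 3.48-fold (p = 0.00794, exact permutation, n = 5 each). Weighted by counts in place of clonotypes the difference was smaller, with 50.1% ± 12.02 of LG counts and 64.5% ± 6.01 of spleen counts unmutated, and did not pass (p = 0.0635, exact permutation, n = 5 each).

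Within IgA the order of the tissues was the reverse. IgA clonotypes of the LG carried 2.54, 2.64, 2.91, 3.37 and 2.83 mutations on average in mice 1 to 5, and IgA clonotypes of the spleen 3.75, 3.82, 3.90, 3.95 and 4.24. The LG was lower in 5 of 5 mice without overlap, by 1.07 mutations (2.86 ± 0.323 against 3.93 ± 0.187, n = 5, p = 0.00794, exact permutation). With clonotypes of at least 2 counts the difference was −1.34 and with at least 5 counts −1.45 (p = 0.00794 for both, exact permutation). It was −1.06 with the sequences shared with mouse 3 taken out of the LG of mouse 2, and −1.11 with clonotypes of higher share in another gland left out (p = 0.00794 for both, exact permutation). The unmutated share of IgA clonotypes was 37.4% ± 3.99 in the LG and 31.8% ± 0.884 in the spleen (p = 0.0397, exact permutation, n = 5), higher in the LG in 4 of 5 mice. The difference of 5.597 points was 8.84 with clonotypes of at least 2 counts, 11.3 with at least 5, and 7.67 with clonotypes of higher share in another gland left out, each in 5 of 5 mice (p = 0.00794, exact permutation). The call was lost under a stricter removal of sequences shared by 2 mice, where the difference was 2.95 points (p = 0.198, exact permutation). The paired test, which cannot pass with 5 mice, gave p = 0.125 (exact sign-flip). The call was also lost without mouse 1, 2, 3 or 5, at differences of 4.40 to 5.84 points (p = 0.114 to 0.143, exact permutation). Among IgA clonotypes that a mouse had in both tissues, mutations averaged 3.19 ± 0.286 in the LG and 3.63 ± 0.422 in the spleen. Among those in 1 tissue alone they averaged 2.71 ± 0.354 and 3.95 ± 0.199 (no test, n = 5 mice). By counts, where large clonotypes weigh most, 39.9% to 70.9% of LG IgA and 18.5% to 20.4% of spleen IgA were unmutated. Mutations per IgA count were then 1.30 to 2.74 in the LG and 4.11 to 5.38 in the spleen (no test, range of the 5 mice).

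IgM of the LG was scarce, with 423 to 2264 counts and as few as 43 clonotypes per library. Unmutated clonotypes were 78.8% ± 5.68 of LG IgM clonotypes and 83.6% ± 7.02 of spleen IgM clonotypes (p = 0.238, exact permutation, n = 5). The mean number of mutations was 1.03 ± 0.430 against 0.596 ± 0.387 (p = 0.183, exact permutation, n = 5). So the difference over all clonotypes was seen where isotypes were pooled, and neither IgA nor IgM alone showed a more mutated LG that passed the test.

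**Figure D2:**
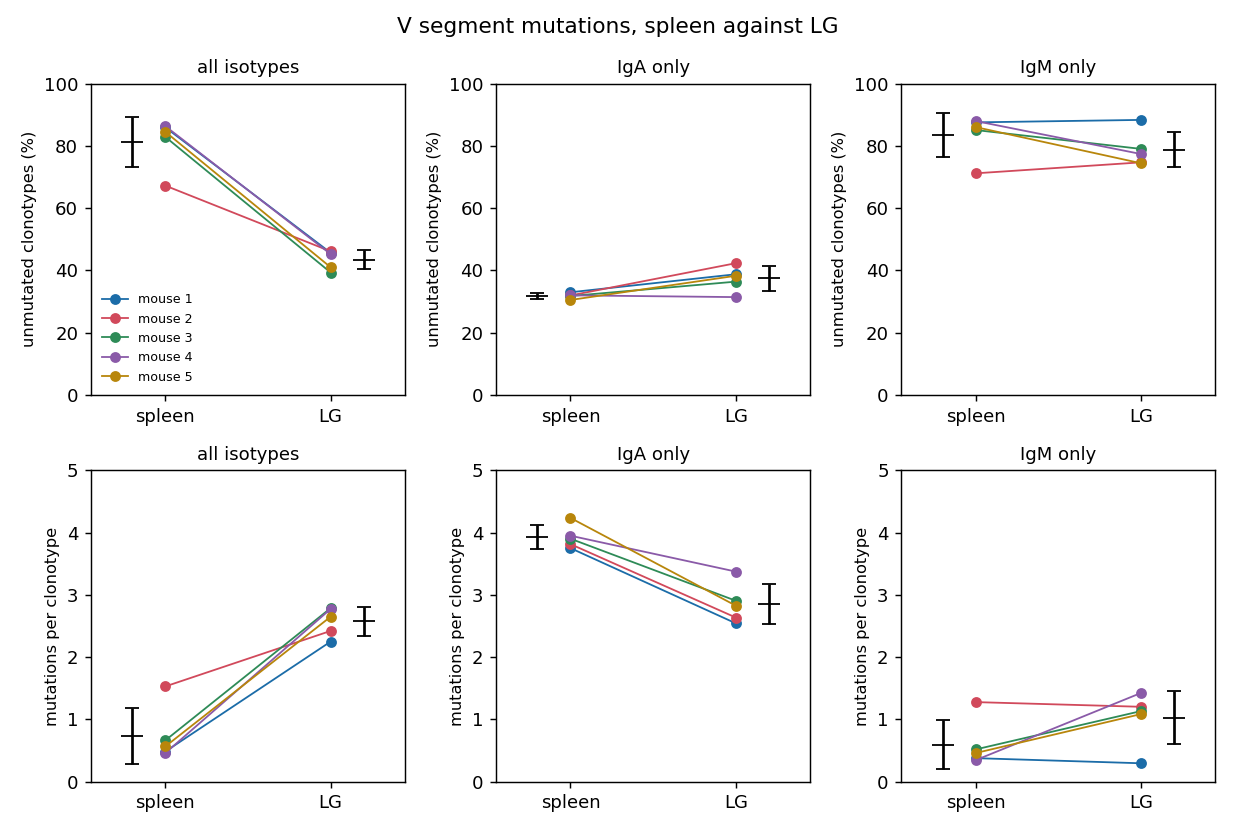
Unmutated clonotypes in percent and mean mutations per clonotype (vertical axes) in LG and spleen, over all isotypes, within IgA and within IgM. Points are the 5 mice, lines join the tissues of a mouse, and bars show mean ± SD. Over all isotypes LG clonotypes have 2.58 mutations against 0.740 in the spleen, while within IgA they have 2.86 against 3.93.

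The LG repertoire was dominated by few clonotypes. The largest clonotype of each spleen held 1.46%, 2.17%, 3.47%, 1.41% and 1.74% of counts in mice 1 to 5, against the 6.86% to 16.5% of the LG given above. The means of 12.5% ± 3.73 and 2.05% ± 0.848 differed 6.07-fold (p = 0.00794, exact permutation, n = 5). The 10 largest clonotypes together held 46.9%, 61.2%, 30.7%, 38.4% and 35.2% of LG counts, and 8.39% ± 3.28 of spleen counts on average. 50% of all counts were reached with 12, 5, 30, 19 and 21 clonotypes in the LG, and with 2664, 4095, 1561, 3914 and 1471 in the spleen. Evenness (Pielou's index, 1 when all clonotypes are equally large) was 0.641, 0.574, 0.714, 0.656 and 0.705 in the LG and 0.829, 0.898, 0.797, 0.857 and 0.799 in the spleen (p = 0.00794, exact permutation, n = 5). After thinning to the same number of counts the difference in evenness was −0.220. Within IgA the largest clonotype held 13.1% in the LG and 5.41% in the spleen on average (p = 0.0238, exact permutation, n = 5), and evenness was 0.667 against 0.736, lower in the LG in 5 of 5 mice (p = 0.00794, exact permutation, n = 5). This evenness call was lost with clonotypes of at least 2 counts (difference −0.0495, p = 0.214) or 5 counts (−0.0621, p = 0.0873), with removal of sequences found in 2 mice (−0.0318, p = 0.54), and with clonotypes of higher share in another gland left out (−0.0518, p = 0.214, exact permutation). The call on the largest IgA clonotype was lost with removal of sequences found in 2 mice (7.76 points, p = 0.0556), and without mouse 1, 2, 3 or 4, at 6.61 to 8.77 points (p = 0.0571 to 0.0857, exact permutation, n = 4). Clonotypes with a single count were 48.3% ± 11.6 of LG clonotypes and 86.5% ± 0.803 of spleen clonotypes.

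**Figure D3:**
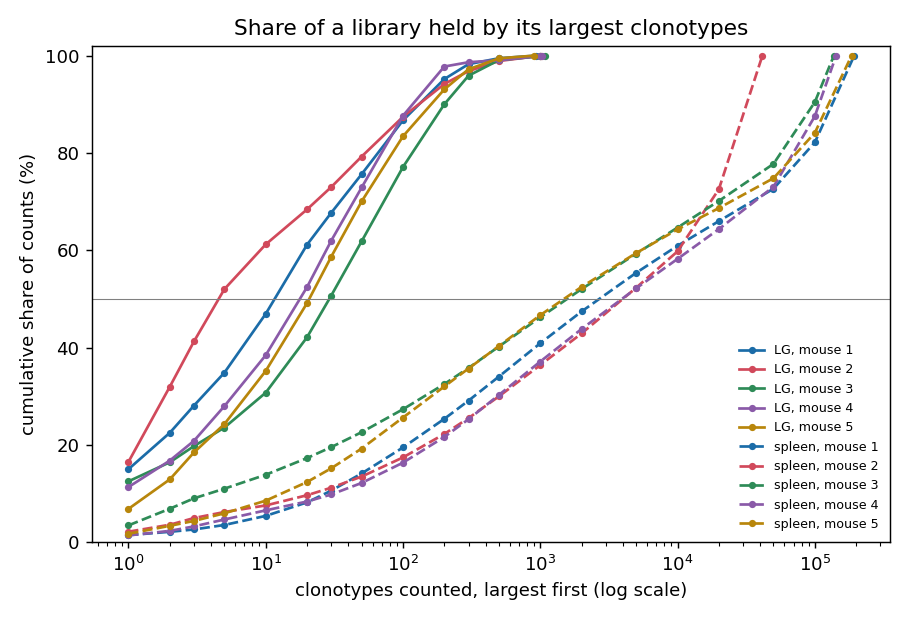
Cumulative share of counts in percent (vertical axis) against clonotype rank by size (horizontal axis, log scale) for the LG (solid) and spleen (dashed) of each mouse. The 5 LG curves reach 50% of counts within 5 to 30 clonotypes and the 5 spleen curves only after 1471 to 4095.

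The largest spleen clonotypes were of mixed isotype and mostly not found in the LG. In mouse 1 it was IGHV1-19 with IGHJ1 (ARSYDYDVYFDV), 99.4% IgG2c, with 0 counts in the LG. In mouse 3 it was IGHV1-26 with IGHJ4 (AREAGFYYDPMDY), 71.8% IgM, and in mouse 5 IGHV14-4 with IGHJ3 (YFAY), 85.2% IgM, both with 0 counts in the LG. A count of 0 allows up to 0.00372%, 0.00393% and 0.00398% in these 3 glands. In mouse 2 an IgA clonotype of IGHV5-17 with IGHJ4 led the spleen and had 6 counts in the LG. In mouse 4 the IgA clonotype of IGHV1-54 with IGHJ2 (ARWLNY) led the spleen at 1.41% and held 1949 counts, 3.44%, in the LG. The leading spleen clonotype was thus IgA in 2 mice, and those 2 were the ones also found in the gland.

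HCDR3 of LG clonotypes averaged 11.65, 11.84, 11.76, 11.62 and 11.71 residues in mice 1 to 5, and HCDR3 of spleen clonotypes 11.66, 11.08, 11.48, 11.58 and 11.54. The groups overlapped, and the LG was longer in 4 of 5 mice. The difference of 0.243 residues passed the test (p = 0.0238, exact permutation, n = 5) but was 0.115 without mouse 2 (p = 0.0857, exact permutation, n = 4). The call was also lost without mouse 3, 4 or 5, at 0.236 to 0.296 residues (p = 0.0571 to 0.0857, exact permutation, n = 4). With libraries thinned to the same number of counts it was 0.372 residues, in 5 of 5 mice without overlap (p = 0.00794, exact permutation). Within IgA it was 0.0580 residues (p = 0.278, exact permutation), and within IgM −0.395 (p = 0.0794, exact permutation). HCDR3 of 7 or fewer residues made up 6.13% ± 0.573 of LG clonotypes and 8.12% ± 1.32 of spleen clonotypes, lower in the LG in 5 of 5 mice (p = 0.00794, exact permutation). Within IgA these shares were 5.27% and 5.71% (p = 0.317), and within IgM 13.99% and 8.78%, higher in the LG in 4 of 5 mice (p = 0.127, exact permutation). HCDR3 of 17 or more residues made up 4.01% ± 0.826 against 2.77% ± 0.546 (p = 0.0317, exact permutation), higher in 4 of 5 mice. That call was lost within IgA, at 3.99% against 3.24% (p = 0.198, exact permutation). The paired test gave p = 0.125 for these long HCDR3 and for the mean length (exact sign-flip).

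The number of bases that the germline alignment left unassigned inside the HCDR3 was also read, where a D gene had been called. LG IgM clonotypes had 5.78 ± 0.233 such bases and spleen IgM clonotypes 6.58 ± 0.199, lower in the LG in 5 of 5 mice (p = 0.00794, exact permutation, n = 5). Clonotypes with no such base were 12.8% ± 4.75 of LG IgM clonotypes and 2.63% ± 0.517 of spleen IgM clonotypes (p = 0.00794, exact permutation, n = 5). The LG values rest on 27 to 204 clonotypes per library. In each mouse the share of IgM clonotypes that could be read in this way was lower in the LG than in the spleen. Removal of sequences shared between mice took a larger share of counts from the spleens than from the glands. These values were not computed without that removal, so its part in the IgM difference was not tested. Among IgA clonotypes 2.76% and 2.55% had none (p = 0.548), and among all clonotypes 3.71% and 2.42% (p = 0.0317, exact permutation, n = 5). For the latter the paired test gave p = 0.125 (exact sign-flip). IgA clonotypes had 7.19 ± 0.344 in the LG and 7.55 ± 0.149 in the spleen, lower in the LG in 5 of 5 mice, with a difference that did not pass (p = 0.103, exact permutation, n = 5). Over all isotypes the values were 7.05 ± 0.394 and 6.74 ± 0.182 (p = 0.175, exact permutation, n = 5). Untemplated bases at the joints are added by the enzyme terminal deoxynucleotidyl transferase.

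Of the IGHJ genes, IGHJ1 was used by a larger share of clonotypes in the LG. It made up 24.9%, 16.0%, 18.8%, 20.0% and 15.5% of LG clonotypes and 14.5% to 15.05% of spleen clonotypes, higher in 5 of 5 mice without overlap. The means were 19.0% ± 3.80 and 14.8% ± 0.224 (p = 0.00794, adjusted p = 0.0317 over 4 genes, exact permutation). The call did not hold with the sequences of mouse 3 taken out of the LG of mouse 2 (3.89 points, p = 0.0794), nor with clonotypes of higher share in another gland left out (3.94 points, p = 0.127, exact permutation). Within IgA the shares were 19.2% and 18.3% (p = 0.746), and within IgM 19.2% and 15.2%, higher in the LG in 5 of 5 mice without overlap (p = 0.00794, exact permutation). IGHJ4 averaged 23.7% in the LG and 26.6% in the spleen (adjusted p = 0.0635, exact permutation). IGHJ2 averaged 33.6% and 33.7%, and IGHJ3 23.7% and 24.9%, without a difference that passed. Weighted by counts, IGHJ1 was higher in the LG in 2 of 5 mice (p = 0.421), and IGHJ3 was lower in 5 of 5 without overlap, at 17.9% against 25.1% (unadjusted p = 0.00794, exact permutation).

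None of the 15 IGHV families differed in its share of clonotypes at an adjusted p under 0.05 by the exact permutation test. The 2 nearest were IGHV14, at 2.92% ± 0.994 of LG clonotypes and 4.58% ± 0.116 of spleen clonotypes, and IGHV4, at 0.728% ± 0.458 and 0.251% ± 0.0692 (p = 0.00794 and adjusted p = 0.0595 for both, exact permutation). Both were without overlap between the tissues. The p of 0.00794 is the smallest this test allows, so even without overlap neither could pass here after adjustment over 15 families. With libraries thinned to the same number of counts IGHV14 remained without overlap, while IGHV4 overlapped (0.697% against 0.359%, p = 0.222) and IGHV2 did not (4.51% against 6.39%, unadjusted p = 0.00794, exact permutation). IGHV1, the largest family, made up 63.6% ± 1.55 and 61.5% ± 2.02 (adjusted p = 0.198, exact permutation). Within IgA it was lower in the LG in 5 of 5 mice (66.3% against 69.6%, unadjusted p = 0.0397), as it was within IgM (46.2% against 60.2%, unadjusted p = 0.00794, exact permutation). Weighted by counts, IGHV2 (1.83% against 6.22%), IGHV13 (0.0549% against 0.277%) and IGHV14 (0.921% against 6.12%) were lower in the LG without overlap (unadjusted p = 0.00794 each, exact permutation). The spleen mean of IGHV14 by counts includes 15.3% in mouse 5. IGHV1 by counts was higher in the LG in 5 of 5 mice, with overlap (69.6% against 56.9%, unadjusted p = 0.0238, exact permutation).

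Some single IGHV genes passed a different test. IGHV4-1 was the only IGHV4 gene seen, so its shares are those of the IGHV4 family above, judged by both tests. Of 133 genes seen, 103 had enough clonotypes to be tested on their numbers of clonotypes per library with the mouse as a block (edgeR quasi-likelihood test, Benjamini-Hochberg adjustment over the 103). 5 genes were higher in the LG (4.85% of those tested) and 4 lower (3.88%), together 8.74%, and 24.3% had an unadjusted p under 0.05. All 9 had the same direction in 5 of 5 mice. The numbers of calls depended on single mice, with 11 higher and 7 lower without mouse 1, 1 and 2 without mouse 3, and 3 and 5 without mouse 4. The genes lie on mouse chromosome 12, and positions are those of GRCm38. IgBLAST assigns each read to the closest germline gene, so mutated sequences of near-identical IGHV1 genes may be split between them.

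IGHV1-53 (115158403 to 115158835) had the strongest call among the higher genes. It made up 7.01%, 7.49%, 8.08%, 6.39% and 5.12% of LG clonotypes and 3.59%, 5.50%, 4.58%, 3.53% and 3.58% of spleen clonotypes. The log2 fold change was 0.72 ± 0.107 (SE, edgeR adjusted p = 0.000136). With clonotypes of at least 2 counts alone the log2 fold change was −0.09 (edgeR adjusted p = 0.674). By share of counts IGHV1-53 was at 20.7%, 19.7%, 24.8%, 21.6% and 4.94% in the LG and at 6.19%, 5.59%, 8.43%, 4.35% and 4.31% in the spleen.

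IGHV1-58 (115312166 to 115312599) made up 0.740% of LG and 0.249% of spleen clonotypes, with a log2 fold change of 1.56 ± 0.378 (edgeR adjusted p = 0.0127). IGHV1-78 (115868773 to 115869227) made up 1.24% against 0.529% (1.203 ± 0.308, adjusted p = 0.0144). IGHV4-1 (113948282 to 113948796) made up 0.728% against 0.251% (1.49 ± 0.401, adjusted p = 0.0169), and IGHV3-6 (114288152 to 114288582) 4.08% against 2.93% (0.48 ± 0.139, adjusted p = 0.0296). These 4 calls were lost when gland clonotypes of higher share in another gland were left out, at adjusted p between 0.127 and 0.895 (edgeR). The log2 fold changes were then 1.46 for IGHV1-58, 0.81 for IGHV1-78, 1.19 for IGHV4-1 and 0.089 for IGHV3-6. Within IgA the log2 fold changes were 0.47 for IGHV1-58 (adjusted p = 0.494), 0.63 for IGHV1-78 (adjusted p = 0.326) and 0.37 for IGHV4-1 (adjusted p = 0.697), while IGHV3-6 stayed called at 0.66 (edgeR adjusted p = 0.00575). With clonotypes of at least 2 counts IGHV4-1 was at −0.13 (edgeR adjusted p = 0.892), and the other 3 stayed called. Without mouse 3 all 4 genes were at 0.0662 to 0.173, and without mouse 4 IGHV1-78, IGHV4-1 and IGHV3-6 were at 0.0935 to 0.131 (edgeR adjusted p). On consensus sequence counts in place of clonotypes IGHV1-78 (−1.09), IGHV4-1 (−3.80) and IGHV3-6 (−0.54) turned direction, none at an edgeR adjusted p under 0.05. IGHV1-58 was then at 0.48 (edgeR adjusted p = 0.738).

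IGHV1-50 (115119748 to 115120219) made up 0.650% of LG and 1.81% of spleen clonotypes (log2 fold change −1.49 ± 0.276, edgeR adjusted p = 0.000867). IGHV1-69 (115623161 to 115623595) made up 1.24% against 2.76% (−1.18 ± 0.211, adjusted p = 0.000867). Both stayed called with those clonotypes left out, as did IGHV1-53. IGHV1-69 lost its call with clonotypes of at least 2 counts (−0.48, adjusted p = 0.246) or 5 counts (−0.15, adjusted p = 0.758). IGHV1-50 kept it at 2 counts (−1.03, adjusted p = 0.0443) and lost it at 5 counts (−0.86, adjusted p = 0.214) and within IgA (−0.96, edgeR adjusted p = 0.209). IGHV14-1 (113931953 to 113932382) had 3, 1, 1, 2 and 0 clonotypes in the glands and made up 0.142% against 0.581% (−2.05 ± 0.533, adjusted p = 0.0144). IGHV14-4 (114176438 to 114176867) made up 0.510% against 1.23% (−1.28 ± 0.323, adjusted p = 0.0144). With clonotypes of higher share in another gland left out, both IGHV14 genes were at an adjusted p of 0.073 with nearly unchanged log2 fold changes of −2.06 and −1.33, and without mouse 3 at 0.0826 and 0.0925 (edgeR). Both calls were also lost with clonotypes of at least 2 counts (adjusted p = 0.074 and 0.0942), with at least 5 counts (0.186 and 0.216) and within IgA (0.0655 and 0.138, edgeR). The log2 fold changes of IGHV14-1 and IGHV14-4 were −1.64 and −0.93 at 2 counts, −1.44 and −0.86 at 5 counts, and −2.06 and −1.38 within IgA.

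**Figure D4:**
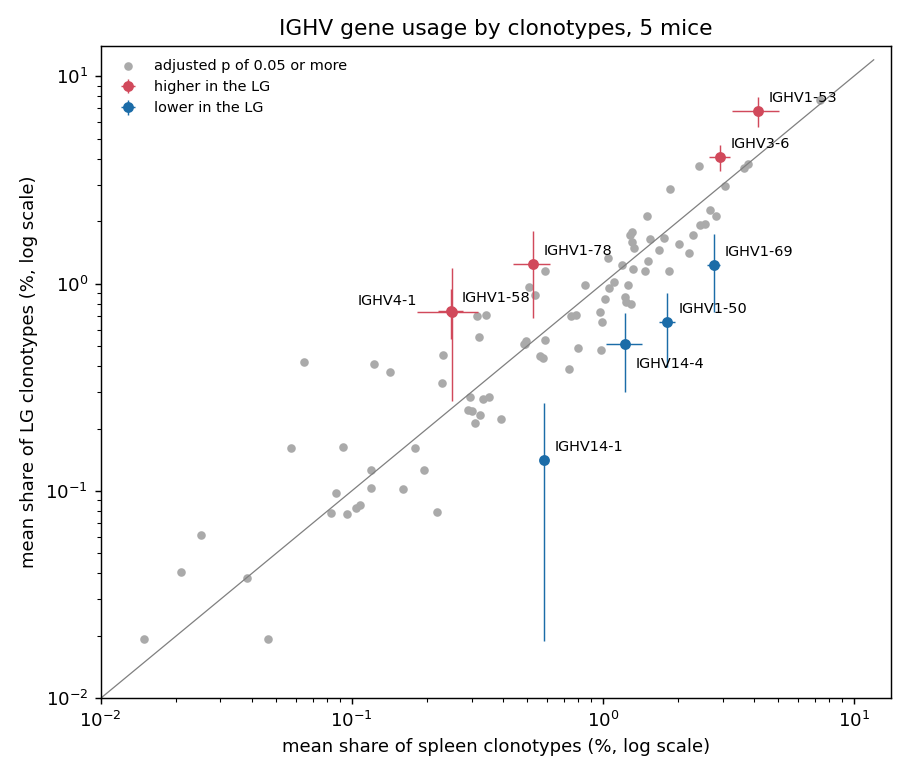
Mean share of clonotypes of each tested IGHV gene in the LG (vertical axis) against the spleen (horizontal axis), in percent on log scales, with the line of equal shares. Named genes are the 9 that passed, with SD bars over 5 mice, and the lower bars of the LG are cut at 90% of the mean. The 8 tested genes found in no gland are not drawn. IGHV1-53 lies above the line at 6.82% against 4.16%, and IGHV1-50 below it at 0.650% against 1.81%.

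IGHV11-1, IGHV11-2 and IGHV12-3 are known from B-1 cells that bind phosphatidylcholine, and none of the 3 passed the test. IGHV11-1 was in no control gland. IGHV11-2 had 0, 18, 0, 1 and 2 clonotypes in the glands, so its mean of 0.419% ± 0.763 against 0.064% in the spleen came from mouse 2 (edgeR adjusted p = 0.166). That mouse's largest clonotype, printed above, was of this gene. IGHV12-3 had 3, 1, 1, 3 and 0 clonotypes (edgeR adjusted p = 0.235). IGHV11-2 was called higher without mouse 1 (2.46, adjusted p = 0.0356), without the mouse as a block (adjusted p = 0.0371) and without removal of shared sequences (2.43, adjusted p = 0.00672), and IGHV12-3 in the last of these (1.86, edgeR adjusted p = 0.0198). On consensus sequence counts in place of clonotypes IGHV11-2 was called lower in the LG (−4.93, edgeR adjusted p = 0.0329). So was IGHV11-1 (−5.79, edgeR adjusted p = 0.0398). By share of counts the IGHV11 family was at 0%, 16.6%, 0%, 0.00353% and 0.00265% in the glands of mice 1 to 5. The spleens were at 0.0676% to 0.156%, so the lower call for IGHV11-2 does not describe the LG of mouse 2. The genes IGHV6-3 and IGHV6-6, a pair listed for gland IgA, had log2 fold changes of −0.41 (edgeR adjusted p = 0.221) and 0.26 (edgeR adjusted p = 0.511). With clonotypes of at least 2 or 5 counts IGHV6-3 was lower in the LG, at −1.33 (edgeR adjusted p = 0.000468) and −1.81 (edgeR adjusted p = 7.0e-12). Within IgA the values were 0.11 for IGHV6-3 (edgeR adjusted p = 0.846) and 0.68 for IGHV6-6 (edgeR adjusted p = 0.253).

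The IGHV1-53 clonotypes of mice 1 and 4 were looked at more closely after their values had been seen, and no test was made. IGHV1-53 with IGHJ1 and a HCDR3 of 10 residues that holds NWD at positions 3 to 5 and ends in YFDV gave 10 clonotypes and 14631 counts in the LG of mouse 1, 18.2% of that library, all IgA. It gave 4 clonotypes and 6442 counts, 11.4%, in the LG of mouse 4 and none in the other 3 glands. The spleens of mice 1 and 4 held 1139 and 543 counts of it, 0.217% and 0.157%, and the other 3 spleens 1, 7 and 1. ARNWDRYFDV had 2518 counts in the LG of mouse 1 and 6436 in that of mouse 4. ATNWDRYFDV, the form that leads in mouse 1, had 12103 counts there and 958 in its spleen, with 602 of IgA and 349 of IgM.

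LG clonotypes recurred in the spleen of the same mouse. The own spleen held 376 of 927, 200 of 1015, 393 of 1089, 272 of 1033 and 376 of 898 LG clonotypes in mice 1 to 5, that is 40.6%, 19.7%, 36.1%, 26.3% and 41.9%. The 95% Wilson intervals ran from 17.4% to 22.3% in mouse 2 and from 38.7% to 45.1% in mouse 5, and cover counting error only. These clonotypes carried 92.1%, 83.0%, 82.3%, 86.8% and 92.1% of LG counts. The spleens of other control mice held 1.11% to 4.21% of LG clonotypes, apart from the 31.8% that the spleen of mouse 3 held of the LG of mouse 2. By counts, other spleens held 0.524% to 27.6%, with the highest values for the LG of mouse 1 in the spleen of mouse 4 (27.6%) and the LG of mouse 4 in the spleen of mouse 1 (13.3%). The own spleen exceeded the others by 29.0 points on average (p = 0.00833, one-sided exact permutation over 120 assignments of spleens to glands, the smallest p they allow). Without mouse 2 the excess was 33.5 points (p = 0.0417, the smallest of 24 assignments, exact permutation). With all libraries thinned to the same number of counts, the own spleen held 31.996%, 19.4%, 29.8%, 18.9% and 31.5% of LG clonotypes. With LG clonotypes of higher share in another gland left out, and no thinning, it held 37.2% in mouse 2 and 35.6% to 50.5% in the others.

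**Figure D5:**
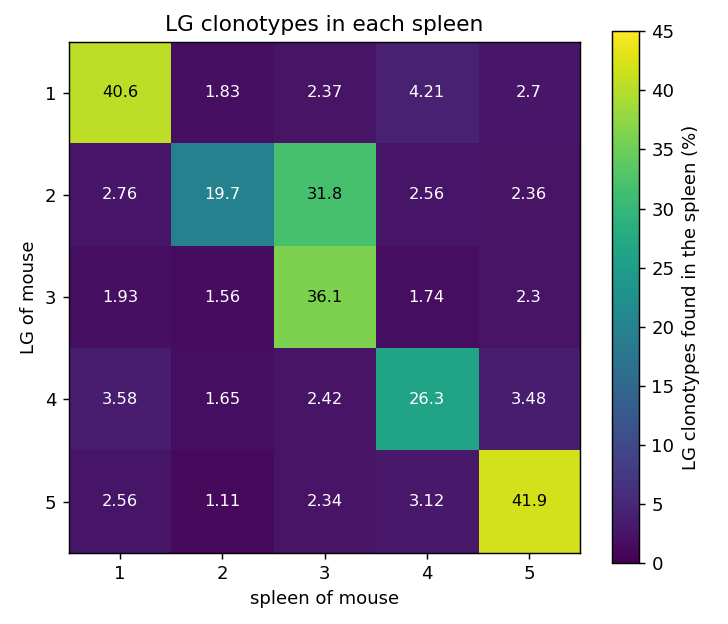
Percent of LG clonotypes of each mouse (rows) found in the spleen of each mouse (columns). The diagonal holds the own spleen, at 19.7% to 41.9%, and the only cell off the diagonal above 4.21% is the LG of mouse 2 with the spleen of mouse 3, at 31.8%.

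LG clonotypes with several counts were found in the own spleen more often than those with 1 count. The 10 largest LG clonotypes were found in the own spleen in 10, 9, 8, 10 and 10 cases, and the 100 largest in 87, 65, 87, 82 and 92 cases. Shared LG clonotypes had a median of 24, 28, 41, 36.5 and 35 counts, and LG clonotypes not found in the own spleen a median of 1 or 2. Of LG clonotypes with 1 count 5.28% to 11.8% were found there, and of those with more 28.3% to 66.8%. These comparisons by size include the 104 to 304 clonotypes per gland shared with the PBS-T gland, of which 5 to 9 were in the own spleen. They were not made without them. In the spleen the shared clonotypes were 0.190% to 0.482% of clonotypes but 9.46% to 11.6% of counts, so they were larger than the average spleen clonotype. Counts in both tissues were weakly related, with Spearman's rho of 0.207 to 0.316 across the shared clonotypes of a mouse, which are not independent.

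Shared clonotypes were mostly IgA in the spleen as well. Of the shared clonotypes 83.8%, 86.0%, 87.5%, 72.4% and 85.6% had IgA counts in the spleen, where 2.67% to 8.43% of all clonotypes had any. Spleen IgM was present in 35.9% to 52.0% of them, against 76.2% to 82.6% of all spleen clonotypes. Shared clonotypes were larger, while on average 86.5% of spleen clonotypes had 1 count and could show only 1 isotype. By counts, IgA made up 59.0% to 85.9% of the shared clonotypes in the spleen, against 13.3% to 24.3% of all spleen counts. IgM made up 9.28% to 27.4% of them by counts, against 64.5% to 71.2%. Shared clonotypes took 39.6% to 52.4% of all spleen IgA counts. At least 1 identical nucleotide sequence was present in both tissues for 67.3% to 78.2% of the shared clonotypes. Shared LG clonotypes carried 2.54 to 2.97 mutations and those not shared 2.05 to 2.72 (range of the 5 mice).

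The largest shared clonotypes differed in how the spleen held them. The leading clonotype of mouse 1 had 25 identical sequences in both tissues. The leading clonotype of mouse 2, of IGHV11-2, had 22 counts in the spleen, all IgA, and that of mouse 3 had 129, of which 115 were IgA. In mouse 4 the order was reversed, with 24 IgA and 381 IgM counts among 486. The leading clonotype of mouse 5 had 2 counts, both IgA.
Among the next largest, IGHV1-9 with IGHJ2 (ARGGSGYFDY) held 7.47% of the LG of mouse 1 and had 687 IgA counts among 693 in its spleen. IGHV3-8 with IGHJ4 (ARWTVQATRAMDY) in the same mouse held 5.59% and had 88 IgA and 277 IgM counts in the spleen. IGHV1-53 with IGHJ4 (ARRGWLRLYAMDY) held 15.4% of the LG of mouse 2, and IGHV1-59 with IGHJ2 (ARGGSNYYFDY) 9.31%, of which 74.0% was IgA. IGHV6-3 with IGHJ4 (TYYGGAMDY) held 3.92% of the LG of mouse 3 and had 44 counts in the spleen, all IgA. IGHV1-22 with IGHJ2 (ARCYDYDRDYFDY) held 5.54% of the LG of mouse 5 and had 97 IgA counts among 103.

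Few clonotypes were common to several control glands. Of the clonotypes of the 5 glands 3675 were in 1 gland, 561 in 2, 33 in 3, 9 in 4 and 6 in all 5. The glands of mice 2 and 3 alone shared 474 clonotypes, where every other pair shared 18 to 61. Each of the 6 in all 5 glands had 11 to 37 counts over these glands and at most 0.0194% of any, and was in no control spleen. Each made up 0.486% to 1.80% of a gland of another group, and those glands include the PBS-T gland that shared clonotypes with all 5 control glands. The largest of the 6 was IGHV1-53 with IGHJ2 (AVDLLWLRRGSFDY), with 37 counts. A clonotype of IGHV8-12 with IGHJ1 in the glands of mice 1, 2 and 3 stood in contrast, with 24, 79 and 865 counts there. It was present in all 5 control spleens with 2 HCDR3 nucleotide versions, and in no gland of the other groups.

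The LG minus spleen differences of the control mice were set against those of the 10 NOD-FMT and 9 PBS-T mice in 18 comparisons. None passed after adjustment (exact permutation of mice). The lowest p was that of IgA, where the difference was 77.9 points in control mice and 85.8 points in NOD-FMT mice (p = 0.00899, adjusted p = 0.162, exact permutation). The unmutated share differed by −37.9 points in control, −26.6 in NOD-FMT and −27.0 in PBS-T mice (p = 0.043 and p = 0.0729, adjusted p = 0.328 for both, exact permutation).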

How the data were processed

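RNA of LG and spleen of 5 untreated C57BL/6 mice was reverse transcribed with constant-region primers carrying molecular identifiers and run on a NovaSeq. Per the methods, the authors merged read pairs with PEAR v0.9.10, kept those with a Phred score of at least 20 in more than 95% of bases, built a consensus for each identifier of 2 or more reads (Clustal Omega v1.2.4), and annotated them with IgBLAST v1.17.1. The germline release is not given in the sources used here. The deposited values are raw counts of consensus sequences per unique sequence, and the deposited fraction of the library, which was checked against the counts and not used further. In the gland library of mouse 4 the name carries "merged", without a stated meaning. That library kept the fewest counts of the glands, and 67.9% of its clonotypes had 1 count, against 37.3% to 47.6% in the other glands.

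Identical sequences found in 3 or more of the 24 mice of a tissue were removed, 0.307% to 1.17% of LG counts and 5.63% to 9.69% of spleen counts. Clonotype means weigh each clonotype once. Single values were compared by two-sided exact permutation over all splits of 10 libraries into 5 and 5 at a threshold of 0.05, with an exact sign-flip test over the 5 mice beside it (which cannot pass that threshold), since both tissues come from the same animal. Benjamini-Hochberg adjustment covered the 6 minor isotypes, 4 IGHJ genes and 15 IGHV families. IGHV genes with at least 20 clonotypes over the 10 libraries were tested with edgeR 4.0.16 on clonotype numbers, with the mouse as a block. On simulated data this found 45.2% of 2-fold and 79.2% of 4-fold changes among 103 genes, with 0.1 false calls on average where nothing was changed. DESeq2 1.42.0 and limma 3.58.1 (on log2 of the percent share plus 0.1) were alternatives. R 4.3.3, Python 3.11.15, NumPy 2.4.6, pandas 2.3.3, SciPy 1.17.1 and Matplotlib 3.10.9 were used. Positions of 97 of the 103 IGHV genes were matched by symbol to GENCODE M21.

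Named IGHV genes were those past the threshold with 1 direction in all 5 mice, up to 10 per direction, plus 5 listed genes. Named clonotypes were the largest of each library, the 3 largest LG clonotypes in the own spleen, and those in 3 or more control glands, of which the few most telling are given. Members and lists were chosen with earlier results of these data known. The comparison without sequences shared with mouse 3, that without clonotypes of higher share in another gland, the IgA settings and the unassigned bases were added after seeing the data.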

Additional observations from a re-analysis of the deposited data

Results flagged for a closer look

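Of 99 groups of 5 libraries looked at, 14 held a library whose distance to its nearest neighbour was more than 0.71 of the group's range, and in 11 of them it was a library of mouse 2. The cut picks out about 1 group in 20 where values are normal and independent. These groups are linked shares of the same libraries, so that rate does not apply to their number. In the LG of mouse 2, IgA was low (88.6% against 96.7% to 97.8% in the others, gap 0.884 of the range), IgM was high (3.50% against 0.555% to 1.10%, gap 0.814) and IgG2c was high (3.57% against 0.238% to 0.539%, gap 0.910). The same gland had the highest share of IGHV11 family and of IGHV11-2 clonotypes (1.77% against 0% to 0.223%, gap 0.874 for both). In the spleen of mouse 2, unmutated clonotypes were few (67.2% against 82.9% to 86.3%, gap 0.820) and mean mutations were high (1.53 against 0.459 to 0.663, gap 0.810). HCDR3 of 7 or fewer residues were frequent there (10.4% against 7.01% to 7.96%, gap 0.717). That spleen also had more IGHJ2 (35.5% against 33.0% to 33.7%, gap 0.732), less IGHJ4 (23.9% against 26.8% to 27.6%, gap 0.804) and less of the IGHV9 family (2.57% against 4.33% to 5.01%, gap 0.721). The remaining 3 were IgD in the LG of mouse 4 (0.0740% against 0.00664% to 0.0223%, gap 0.767), IgE in the LG of mouse 3 (0.0288% against 0% to 0.00618%, gap 0.786) and IGHV14-1 in the spleen of mouse 5 (0.545% against 0.583% to 0.595%, gap 0.771).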

How the results depend on the processing

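With each mouse left out in turn, the differences between LG and spleen ranged from 76.3 to 81.3 points for IgA, from −67.8 to −65.9 for IgM and from −42.1 to −36.5 for unmutated clonotypes. They ranged from 1.72 to 2.07 mutations, from 0.115 to 0.307 residues of HCDR3, from −0.202 to −0.142 for evenness and from 9.41 to 11.7 points for the top clonotype. The own spleen held 30.7% to 36.2% of LG clonotypes and 86.0% to 88.5% of counts, with an excess over other spleens of 25.8 to 33.5 points. Within IgA the ranges were 4.40 to 7.14 points unmutated and −1.20 to −0.991 mutations. The numbers of IGHV genes called were 1 to 11 higher and 2 to 7 lower. They were 11 and 7 without mouse 1, 1 and 2 without mouse 3, and 3 and 5 without mouse 4. With the replicate block (sign-flip test, which cannot pass 0.05), the values were IgA 77.9, IgM −66.8, unmutated −37.9, mutations 1.84, length 0.243 (p = 0.125, exact), evenness −0.178, top clonotype 10.4, IgA unmutated 5.597 (p = 0.125, exact) and IgA mutations −1.07, each of the others at the smallest p this test allows. Without the block edgeR called 7 higher and 5 lower. Without mice 2 and 3 (3 mice a tissue, smallest p 0.1), the values were IgA 80.4, IgM −67.2, unmutated −41.7, mutations 2.06, length 0.0619, evenness −0.161, top clonotype 9.54, own minus other spleens 33.0, IgA unmutated 4.33 and IgA mutations −1.07. Weighted by counts, the differences were −14.4 unmutated, 0.342 mutations and 0.246 residues. IgA alone reversed the order (unmutated 5.597, mutations −1.07) with length at 0.0580, and IgM alone gave unmutated −4.79, mutations 0.433 and a reversed length of −0.395. Removal of sequences in 2 mice gave length 0.176 and IgA unmutated 2.95. The own spleen held 50.7% of LG clonotypes with at least 2 counts, 49.4% (76.6% of counts) with at least 5, 43.9% without clonotypes of higher share in other glands, and after thinning 76.4% of counts. IGHV genes called higher and lower were 1 and 2 without those clonotypes, 10 and 7 without sequence removal, 10 and 8 with at least 2 counts, 2 and 7 with limma, and 1 and 34 on consensus counts. Those called higher were 8 without a minimum, 2 with removal at 2 mice, 9 with at least 5 counts, 3 by HCDR3 nucleotides and 3 within IgA. DESeq2 and TMM scaling each gave 5 and 4. Single values that turned included IGHV4 (−0.0100 with at least 2 counts, −0.298 with at least 5, −0.481 by counts), IGHV7 (−1.63 and −2.01), IGHJ4 (0.110 with at least 5), IgG2b (1.62 by unique sequences), IGHV1-53 (−0.091 and −0.35), IGHV4-1 (−0.13, −0.77, and −3.80 by counts), IGHV1-78 (−1.09), IGHV11-2 (−4.93) and IGHV3-6 (−0.54), the last 3 by counts. The causes were not tested. Depth limits small clonotypes, as 48.3% of LG clonotypes have 1 count.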

Other observations

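LG clonotypes with a higher share of counts in the gland of another of the 24 mice numbered 159, 537, 313, 298 and 181 in control mice 1 to 5. They were 17.2%, 52.9%, 28.7%, 28.8% and 20.2% of the clonotypes, and 5.59%, 12.1%, 1.65%, 1.05% and 0.449% of the counts. With these left out, the own spleen held 47.0%, 37.2%, 49.0%, 35.6% and 50.5% of the remaining LG clonotypes. Of the clonotypes shared with the LG of 1 PBS-T mouse, 142, 96, 287, 274 and 169 had the higher share there, and 8, 6, 9, 8 and 5 were in the own spleen of the control mouse. For glands of other mice, leaving out that PBS-T gland and the pair of mice 2 and 3, the largest number of shared clonotypes was 25 to 61 per control gland.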
